A study of Sus scrofa with 4 samples.

Results

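The genes described here are 6 transcription factors associated with the trophoblast, CDX2, GATA2, GATA3, HAND1, ELF3 and ELF5, followed through the reprogramming of pig skin fibroblasts. They were chosen by symbol, with earlier results of these data known, as were the gene lists below. Each factor was found by its pig Ensembl identifier, so that 6 of 6 were measured among the 25880 genes of the count table. Fibroblasts of 1 pig were converted with non-integrating plasmids, first into colonies that the authors named induced neural stem cell-like cells (iNSLCs) and then into induced pluripotent stem cells (iPSCs). Messenger RNA of 4 cultures was sequenced.

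The iPSC group held clone 1 and clone 2, each at passage 3. Both came from colonies that appeared when iNSLCs were moved to an embryonic stem cell medium (ESM) with activin A, transforming growth factor β1 and the WNT inhibitor IWP2. The iNSLC library, at passage 1, came from the dome-shaped primary colonies that grew in the medium called NSM after transfection with the EP-B set of episomal vectors. The fibroblast library, also at passage 1, came from ear skin of the same post-neonatal animal, N01F, before transfection. The vectors encode human and mouse reprogramming factors, and none of them is a gene of this group. The study's derivation method placed transfected cells on mouse embryonic feeder cells, whose RNA was not analysed here. All 4 libraries trace to 1 animal, there is 1 iNSLC library and 1 fibroblast library, and the genes cannot be followed across animals.

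Total counts were 21640374 and 41296933 in iPSC clones 1 and 2, 25784594 in iNSLCs and 62421521 in fibroblasts, and 16218 to 17555 genes had at least 1 count in a library. Levels are given as CPM, the counts of a gene per 1000000 counts of its library after scaling for library composition, and 3 counts, taken as the limit of what a count of 0 allows, correspond to 0.127 and 0.0656 CPM in iPSC clones 1 and 2, 0.105 CPM in iNSLCs and 0.0648 CPM in fibroblasts. The labels were set against marker lists. Summed over 5 pluripotency markers, the level was 852 and 926 CPM in iPSC clones 1 and 2, 377 CPM in iNSLCs and 0.389 CPM in fibroblasts, with POU5F1 and NANOG at 0 counts in fibroblasts. POU5F1 (OCT4), SOX2, NANOG and LIN28A of this list are also encoded by the vectors. The paper found the vectors still present in early marmoset iNSLCs. It reported their removal from porcine iPSCs at a later passage than that sequenced. How far vector transcripts added to the sum was not tested. TDGF1 (named by position) is not a vector gene. It stood at 8.32 and 7.02 CPM in the iPSC clones, 1.12 CPM in iNSLCs and 0.0216 CPM in fibroblasts. Summed over 7 fibroblast markers, the level was 752 and 743 CPM in the iPSC clones, 36012 CPM in iNSLCs and 118202 CPM in fibroblasts. Fibroblast transcripts were thus abundant in the iNSLC library. Over 6 neural stem markers, the sum was 564 and 632 CPM in the iPSC clones, 644 CPM in iNSLCs and 52.4 CPM in fibroblasts. That sum hardly separated iNSLCs from iPSCs. SOX1 (named by position), MSI1, FABP7 and HES5 stood highest in iNSLCs, NES in the iPSC clones and PAX6 in fibroblasts. These are bulk libraries, in which fewer cells of a type and less RNA per cell cannot be told apart.

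The trophoblast is the outer lineage of the mammalian blastocyst and builds the fetal part of the placenta. In mouse embryos CDX2 and GATA3 act in the first separation of trophectoderm from the inner cell mass, ELF5 maintains trophoblast stem cells, GATA2 acts with GATA3 in later trophoblast genes, and HAND1 drives trophoblast giant cells. ELF3 is an epithelium-specific relative of ELF5. None of these factors is restricted to the trophoblast: CDX2 also patterns the caudal embryo and the intestine, GATA2 acts in blood and endothelium, GATA3 in skin and T cells, and HAND1 in heart, lateral mesoderm and extraembryonic mesoderm.

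The 6 factors did not move as a block. HAND1 and ELF3 stood highest in both iPSC clones, CDX2 and GATA3 stood highest in iNSLCs, and GATA2 was lower in both iPSC clones than in iNSLCs and fibroblasts. ELF5 was present in iNSLCs and iPSC clone 1, low in iPSC clone 2 and at 0 counts in fibroblasts. In iPSCs against fibroblasts, 4 of the 6 rose and 1 fell, at an adjusted p under 0.05 in edgeR's quasi-likelihood test over 15739 genes, where 29.6% of all genes tested rose and 27.5% fell. The median log2 ratio of the 6 was 5.46, against 0.13 over all genes tested. CDX2 and ELF5, among those that rose, had 0 counts in fibroblasts and could not fall against them. The median takes 3 counts there for both, so it depends on that choice. The same limit holds below for every gene at 0 counts in fibroblasts. In iPSCs against iNSLCs, 1 rose and 3 fell, where 14.1% of all genes rose and 14.1% fell, and the median was -1.28 against 0.00. These 2 comparisons share the iPSC libraries. The spread behind both tests comes from the 2 iPSC clones alone, with 1 residual degree of freedom, and the lone iNSLC and fibroblast libraries are assumed to vary like the clones, which may be no more than clonal or technical spread.

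**Figure D1:**
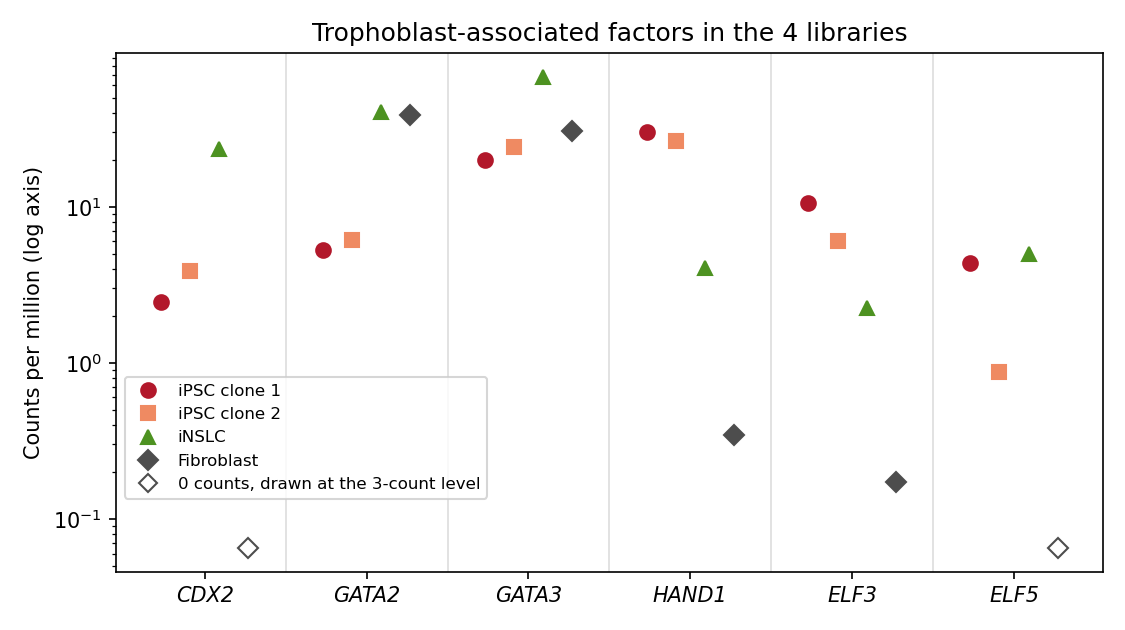
Level of each of the 6 factors in the 4 libraries, in CPM on a log axis, 1 point per library; the open diamonds are fibroblast values of 0 counts drawn at the 3-count level of 0.0648 CPM. CDX2, GATA3 and ELF5 have their highest point in iNSLCs, HAND1 and ELF3 in the iPSC clones, and the 2 GATA2 points of iNSLCs and fibroblasts lie side by side at 40.8 and 38.6 CPM.

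CDX2, a caudal-type homeobox factor, is encoded on chromosome 11 at 5339722 to 5346081 (Sscrofa11.1, minus strand). It had 58 and 177 counts in iPSC clones 1 and 2, 675 counts in iNSLCs and 0 counts in fibroblasts, which is 2.45 and 3.87 CPM in the iPSC clones and 23.6 CPM in iNSLCs. Both clones lay far under the iNSLC library and above the fibroblast limit. CDX2 rose at least 48.8-fold in iPSCs (3.16 ± 1.004 CPM, SD, n = 2) against fibroblasts, taking 3 counts in the fibroblast library (edgeR adjusted p = 0.00141). Against iNSLCs, it was 7.46-fold lower in iPSCs (log2 ratio -2.88, SE 0.34, edgeR adjusted p = 0.00819). The iNSLC level was at least 364-fold above the fibroblast level. The order was therefore iNSLCs, iPSCs, fibroblasts.

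GATA2 and GATA3 are zinc finger factors that bind the same core motif. GATA2 lies on chromosome 13 at 71984067 to 71999729 (plus strand), and 325 bases, or 5.36%, of its exons overlap EEFSEC on the opposite strand, whose reads cannot be separated without knowledge of strand. GATA2 had 125 and 282 counts in iPSC clones 1 and 2, 1168 in iNSLCs and 1789 in fibroblasts. The levels were 5.28 and 6.16 CPM in the iPSC clones, 40.8 CPM in iNSLCs and 38.6 CPM in fibroblasts. GATA2 was thus low only in the iPSC libraries, and EEFSEC stood at 12.03 and 11.56 CPM in the iPSC clones, 11.06 CPM in iNSLCs and 17.9 CPM in fibroblasts. GATA2 fell 6.75-fold in iPSCs (5.72 ± 0.626 CPM, SD, n = 2) against fibroblasts (log2 ratio -2.75, SE 0.18, edgeR adjusted p = 0.000525). Against iNSLCs it fell 7.13-fold (log2 ratio -2.83, SE 0.18, edgeR adjusted p = 0.00243). The iNSLC level was 1.06 times the fibroblast level (95% exact binomial interval 0.979 to 1.14), so with TMM scaling these neighbours in the order did not differ beyond counting error. With total counts the log2 ratio was 0.66, against 0.08 with TMM, so the size of this difference depends on the scaling.

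Blood and endothelial transcripts were looked at beside GATA2, since that factor also acts there. Summed over 8 such markers, the level was 29.1 and 35.9 CPM in iPSC clones 1 and 2, 51.8 CPM in iNSLCs and 221 CPM in fibroblasts. All 8 had at least 1 count in every library, and most of the fibroblast sum was RUNX1, a factor of blood cells and other tissues, at 174 CPM. TAL1 (named by position) stood at 0.338 and 1.42 CPM in the iPSC clones, 1.05 CPM in iNSLCs and 9.65 CPM in fibroblasts. PECAM1, an endothelial adhesion protein, stood at 2.03 and 5.20 CPM in the iPSC clones, 21.5 CPM in iNSLCs and 19.5 CPM in fibroblasts, and was lower in iPSCs in both tests (edgeR adjusted p = 0.0162 against fibroblasts and 0.0289 against iNSLCs), as GATA2 was. TIE1, an endothelial receptor, stood at 4.73 and 4.41 CPM in the iPSC clones, 10.4 CPM in iNSLCs and 0.130 CPM in fibroblasts. CDH5, of the same list, stood at 3.97 and 9.22 CPM in the iPSC clones, 1.05 CPM in iNSLCs and 0.0432 CPM in fibroblasts. It rose in iPSCs against fibroblasts (edgeR adjusted p = 0.00424) and missed the threshold against iNSLCs (adjusted p = 0.0512). CD34 stood at 3.08 and 3.37 CPM in the iPSC clones, 1.22 CPM in iNSLCs and 14.6 CPM in fibroblasts. It fell in iPSCs against fibroblasts. Against iNSLCs CD34 rose (edgeR adjusted p = 0.0378), a call that did not hold in every alternative fit. Of the 8 markers, 2 rose and 4 fell in iPSCs against fibroblasts, where 29.6% of all genes tested rose and 27.5% fell. Against iNSLCs 1 rose and 2 fell, where 14.1% of all genes tested rose and 14.1% fell. The markers thus differed among themselves, PECAM1 being ordered like GATA2 and RUNX1, TAL1, TIE1, CDH5 and CD34 not. The part of such cells in the GATA2 level was not tested.

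GATA3 lies on chromosome 10 at 63367663 to 63390560 (minus strand). It had 473 and 1112 counts in iPSC clones 1 and 2, 1959 in iNSLCs and 1419 in fibroblasts. That is 20.0 and 24.3 CPM in the iPSC clones, 68.4 CPM in iNSLCs and 30.6 CPM in fibroblasts. The iNSLC library was the highest and the iPSC clones were close below the fibroblast value. GATA3 fell 3.09-fold in iPSCs (22.1 ± 3.06 CPM, SD, n = 2) against iNSLCs (log2 ratio -1.62, SE 0.17, edgeR adjusted p = 0.00599). Against fibroblasts the log2 ratio was -0.47 (SE 0.17, edgeR adjusted p = 0.0746) and turned to 0.11 (edgeR adjusted p = 0.633) when libraries were scaled by total counts, so no direction is given. The iNSLC level was 2.23 times the fibroblast level (95% exact binomial interval 2.08 to 2.39), a log2 ratio of 1.16 that was 1.74 with total counts. Keratinocyte markers moved in the same library: summed over 4 found, they stood at 9.96 and 6.08 CPM in iPSC clones 1 and 2, 74.6 CPM in iNSLCs and 5.33 CPM in fibroblasts. KRT1, a keratin of differentiating epidermis, made 41.0 CPM of the iNSLC sum and had 0 counts in both iPSC clones. Their part in the GATA3 and CDX2 levels of iNSLCs was not tested.

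HAND1, a basic helix-loop-helix factor, lies on chromosome 16 at 68677963 to 68683342 (plus strand). It had 720 and 1208 counts in iPSC clones 1 and 2, 117 in iNSLCs and 16 in fibroblasts, which is 30.4 and 26.4 CPM in the iPSC clones, 4.08 CPM in iNSLCs and 0.345 CPM in fibroblasts. It was the steepest of the 6 against fibroblasts among those with a measurable fibroblast level, and its clones differed little. HAND1 rose 82.2-fold in iPSCs (28.4 ± 2.83 CPM, SD, n = 2) against fibroblasts (log2 ratio 6.35, SE 0.32, edgeR adjusted p = 0.000306). Against iNSLCs it rose 6.96-fold (log2 ratio 2.80, SE 0.24, edgeR adjusted p = 0.00432), the only one of the 6 to pass the test upward in that comparison. The iNSLC level was itself 11.8 times the fibroblast level (95% exact binomial interval 6.98 to 21.4). HAND1 was thus ordered iPSCs, iNSLCs, fibroblasts, with CDX2 ordered iNSLCs, iPSCs, fibroblasts.

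ELF3 and ELF5 are ETS factors of epithelia. ELF3 lies on chromosome 10 at 24237068 to 24243058 (plus strand), and ELF5 on chromosome 2 at 26443977 to 26488445 (plus strand). ELF3 had 250 and 275 counts in iPSC clones 1 and 2, 64 in iNSLCs and 8 in fibroblasts, which is 10.6 and 6.01 CPM in the iPSC clones, 2.23 CPM in iNSLCs and 0.173 CPM in fibroblasts. Both clones lay above the other libraries. ELF3 rose 47.9-fold in iPSCs (8.28 ± 3.21 CPM, SD, n = 2) against fibroblasts (log2 ratio 5.55, SE 0.65, edgeR adjusted p = 0.00255). Against iNSLCs the level was 3.71 times as high (log2 ratio 1.88, SE 0.50), which missed the threshold in edgeR (adjusted p = 0.0518) and passed it with DESeq2 (adjusted p = 0.0385). The iNSLC level was 12.9 times the fibroblast level (95% exact binomial interval 6.18 to 31.2).

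ELF5 had 103 and 40 counts in iPSC clones 1 and 2, 143 in iNSLCs and 0 in fibroblasts. The levels were 4.35 and 0.874 CPM in the iPSC clones and 4.99 CPM in iNSLCs, so that clone 1 stood near the iNSLC library and clone 2 well under it. ELF5 rose at least 40.3-fold in iPSCs (2.61 ± 2.46 CPM, SD, n = 2) against fibroblasts (edgeR adjusted p = 0.0213). That call was lost when edgeR used bias-adjusted deviances (adjusted p = 0.0654), and the log2 ratio of levels, 5.33 with both clones, was 3.75 without clone 1 and 6.07 without clone 2. Against iNSLCs the log2 ratio was -0.96 (SE 0.94, edgeR adjusted p = 0.472), and iPSCs and iNSLCs could not be ordered. The iNSLC level was at least 77.0-fold above the fibroblast level.

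**Figure D2:**
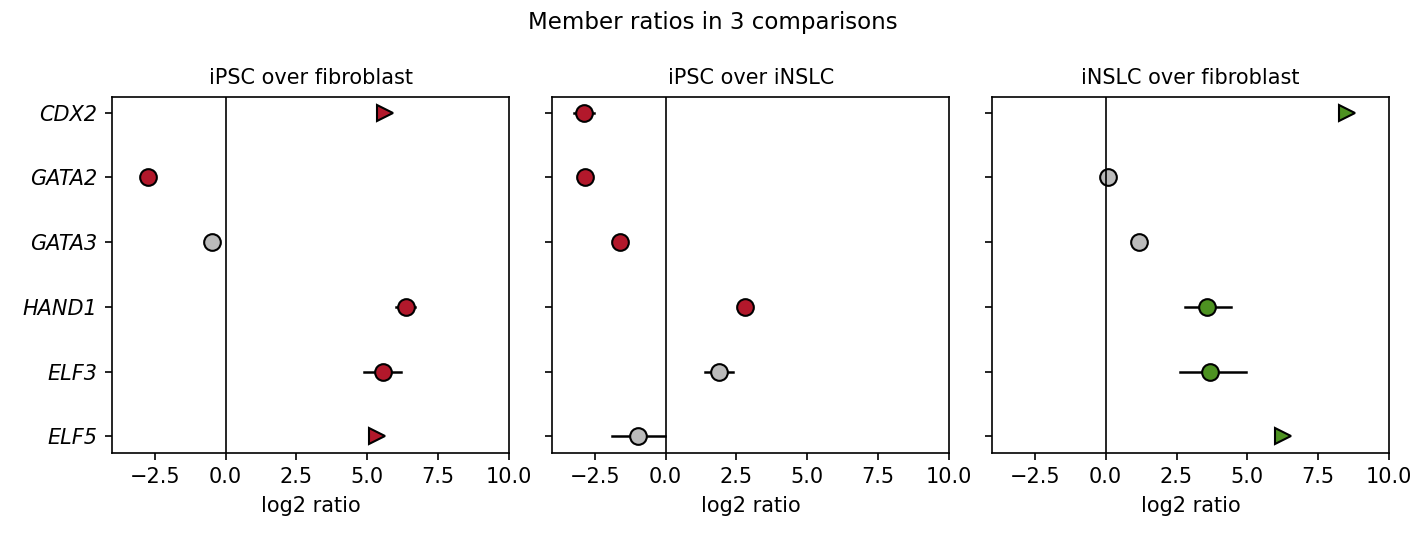
Log2 ratios of the 6 factors in iPSCs over fibroblasts, iPSCs over iNSLCs and iNSLCs over fibroblasts. Circles are ratios, with bars of 1 SE in the first 2 panels and 95% exact binomial intervals in the last; triangles are lower bounds against 0 counts; grey symbols did not pass the test or, in the last panel, the 4-fold size. HAND1 is to the right of 0 in each panel and GATA2 at -2.75, -2.83 and 0.08.

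With 1 library on each side, iNSLCs and fibroblasts were compared by size, counting a gene as apart at 4-fold or more with at least 1 CPM in the higher library. By that rule 4 of the 6 factors were higher in iNSLCs (CDX2, HAND1, ELF3 and ELF5) and 0 were lower, where 13.2% of the 15739 genes were higher and 7.26% lower. The median log2 ratio of the 6 was 3.63, against 0.10 over those genes. CDX2 and ELF5, at 0 counts in fibroblasts, could not be lower in iNSLCs. The difference has no replicate check, and the intervals and limits cover counting error only.

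Per kb of exon, the make-up of the group differed between the 3 cell states. The summed level of the 6 factors was 18.9 and 17.7 CPM per kb in iPSC clones 1 and 2, 38.5 CPM per kb in iNSLCs and 14.0 CPM per kb in fibroblasts. HAND1 held the largest share of the sum in the iPSC clones, at 41.6% and 38.5%, followed by GATA3 at 26.0% and 33.7%. In iNSLCs GATA3 led with 43.6%, followed by CDX2 with 31.7% and GATA2 with 17.5%, and in fibroblasts GATA3 and GATA2 together made nearly all of it, at 53.6% and 45.4%. The per kb level of GATA3 over that of GATA2 was 5.64 and 5.88 in the iPSC clones, 2.5 in iNSLCs and 1.18 in fibroblasts. The iPSC clones were thus close in this ratio and above the other libraries.

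**Figure D3:**
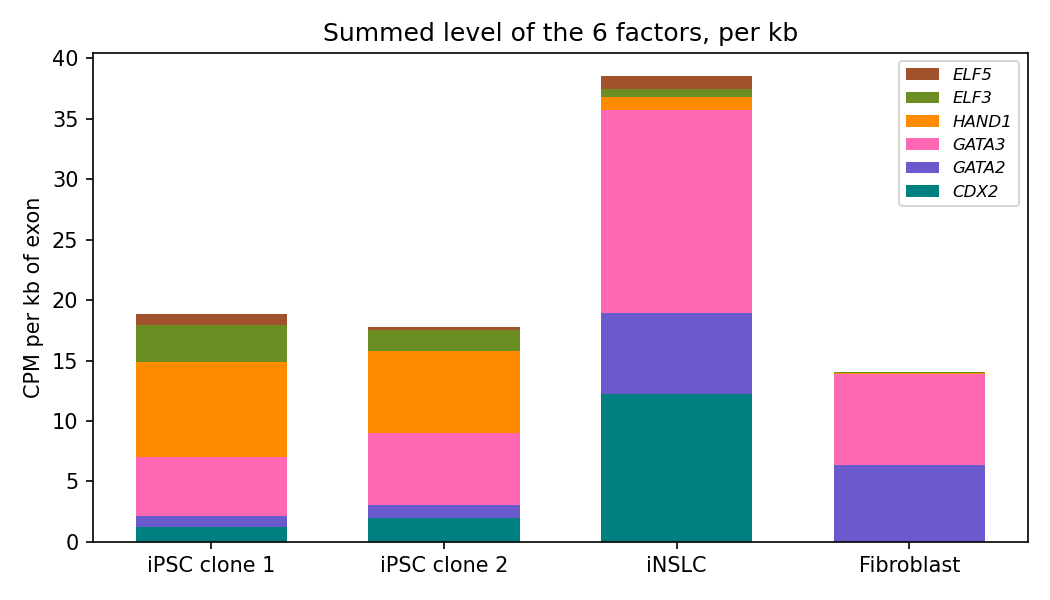
Stacked level of the 6 factors in each library, in CPM per kb of exon. The iNSLC bar, at 38.5, is the tallest and carries a CDX2 segment of 12.2; the iPSC bars, at 18.9 and 17.7, are led by HAND1, and the fibroblast bar, at 14.0, by GATA3 and GATA2.

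None of the 6 was among the most abundant transcripts. Ranked per kb among genes with a count in the same library, the highest placement was GATA3 in iNSLCs at percentile 83.2, followed by CDX2 in iNSLCs at 76.7. In iPSC clones 1 and 2, HAND1 stood at percentiles 65.8 and 63.9, GATA3 at 56.0 and 61.0, ELF3 at 47.4 and 40.6, CDX2 at 34.8 and 42.7, GATA2 at 29.9 and 34.0, and ELF5 at 30.8 and 17.2. HAND1 was thus placed highest of the 6 in both iPSC libraries. In fibroblasts GATA3 was at percentile 61.0 and GATA2 at 57.6, with HAND1 at 13.5 and ELF3 at 9.34.

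Between the iPSC clones, ELF5 was the only factor of the 6 that differed by 4-fold or more. It was 4.97-fold lower in clone 2 than in clone 1 (95% exact binomial interval 3.42 to 7.36), in a comparison where 1.04% of the genes were lower and 0.146% higher by that size. ELF3 was also lower in clone 2, at 0.569 of the clone 1 level (0.478 to 0.678), and HAND1 at 0.868 (0.791 to 0.954). CDX2 was 1.58 times as high in clone 2 (1.17 to 2.16), GATA3 1.22 times (1.09 to 1.36) and GATA2 1.17 times (0.943 to 1.45). The ETS factors and HAND1 thus lay on the lower side in clone 2 and the GATA factors and CDX2 on the higher side, with the GATA2 interval covering 1. A difference between 2 libraries compares those libraries and not clones in general.

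**Figure D4:**
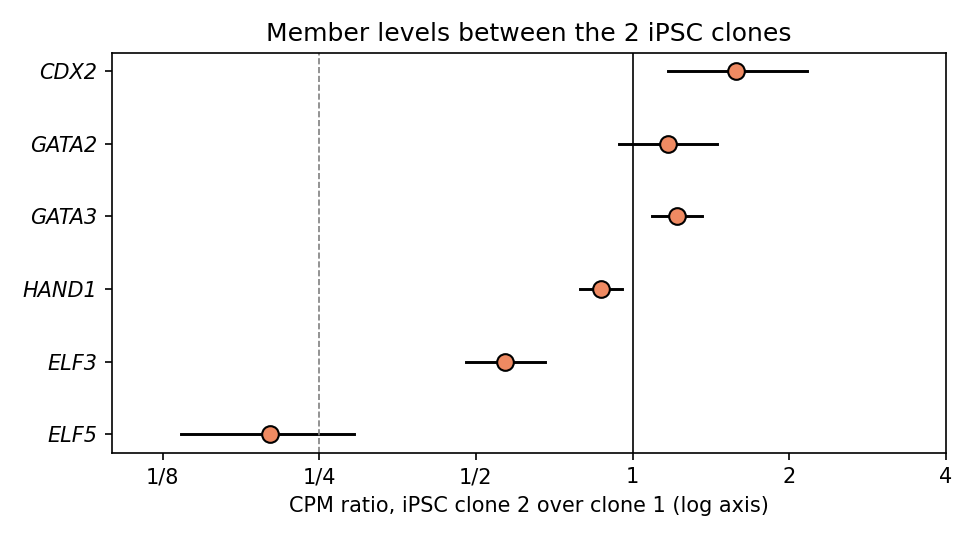
Ratio of CPM in iPSC clone 2 over clone 1 for the 6 factors on a log axis, with 95% exact binomial intervals of the counts; the dashed line marks 4-fold lower. ELF5, at 0.201, is the only point beyond that line, and its interval crosses it.

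Close relatives of the 6 factors went in both directions. Of 12 relatives, 10 were tested. In iPSCs against fibroblasts 3 rose and 4 fell, where 29.6% of all genes tested rose and 27.5% fell. With total counts 4 relatives rose and 2 fell, where 7063 of 15739 genes rose and 2645 fell. GATA4, a factor of endoderm and heart, stood at 59.7 and 83.5 CPM in iPSC clones 1 and 2, 0.209 CPM in iNSLCs and 0.389 CPM in fibroblasts. It rose 184-fold in iPSCs against fibroblasts and 342-fold against iNSLCs (edgeR adjusted p = 0.000344 and 0.00182). GATA6, which acts in endoderm and mesoderm, stood at 49.9 and 50.9 CPM in the iPSC clones, 8.13 CPM in iNSLCs and 7.41 CPM in fibroblasts, and rose 6.81-fold against fibroblasts and 6.20-fold against iNSLCs (edgeR adjusted p = 0.000448 and 0.00248). The GATA family was thus split in iPSCs, with GATA4 and GATA6 up where GATA2 was down. GATA1, the erythroid member, had 0 counts in every library, and GATA5 had at most 12 counts.

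The other CDX genes were measured beside CDX2. CDX4, which acts with CDX2 in the caudal embryo, stood at 17.9 and 25.7 CPM in iPSC clones 1 and 2, 12.6 CPM in iNSLCs and 0 counts in fibroblasts. It rose at least 336-fold in iPSCs against fibroblasts (edgeR adjusted p = 0.000444), and its difference from iNSLCs did not pass (1.73-fold, edgeR adjusted p = 0.113). CDX1 (named by position) had 27 and 11 counts in the iPSC clones, 247 in iNSLCs and 1 in fibroblasts, and fell 12.5-fold in iPSCs against iNSLCs (edgeR adjusted p = 0.0379). Of the CDX genes, CDX1 and CDX2 were thus highest in iNSLCs, while CDX4 reached per kb levels of 20.9 and 30.0 in the iPSC clones, where CDX2 had 1.27 and 2.01.

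HAND2, the relative of HAND1 in heart and limb, moved the other way. It stood at 2.79 and 3.06 CPM in iPSC clones 1 and 2, 2.37 CPM in iNSLCs and 8.49 CPM in fibroblasts, a 2.90-fold fall in iPSCs against fibroblasts (edgeR adjusted p = 0.0124) that was lost with total counts and with DESeq2. Of the ETS relatives, the widely used ELF1, ELF2 and ELF4 fell 3.20-fold, 1.88-fold and 4.99-fold in iPSCs against fibroblasts, ELF2 not with total counts. EHF, the epithelial gene next to ELF5, had 45 and 24 counts in the iPSC clones, 23 in iNSLCs and 12 in fibroblasts, and did not pass in either test. SPDEF, an ETS factor of secretory epithelia, had at most 15 counts in a library. In iPSCs against iNSLCs, 2 relatives rose (GATA4 and GATA6), 1 fell (CDX1) and 7 did not pass. Of all genes tested there, 14.1% rose and 14.1% fell.

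Other trophoblast regulators were mixed as well. Of 18 listed, 17 were tested. In iPSCs against fibroblasts 10 rose and 4 fell, where 29.6% of all genes tested rose and 27.5% fell. The median log2 ratio of these regulators was 1.19, against 0.13 over all genes. With total counts 11 rose and 2 fell, where 7063 of 15739 genes rose and 2645 fell. EOMES, a T-box factor of trophoblast stem cells in mouse and of the primitive streak, stood at 157 and 109 CPM in iPSC clones 1 and 2, 2.48 CPM in iNSLCs and 2 counts in fibroblasts. It rose 2903-fold against fibroblasts (95% exact binomial interval 803 to 23974 from pooled counts) and 53.6-fold against iNSLCs (edgeR adjusted p = 0.000274 and 0.00229). TEAD4, which acts upstream of Cdx2 in mouse embryos, stood at 85.2 and 84.9 CPM in the iPSC clones, 18.7 CPM in iNSLCs and 38.7 CPM in fibroblasts, and rose 4.55-fold in iPSCs against iNSLCs (edgeR adjusted p = 0.00229). In iPSCs against iNSLCs, TEAD4 and EOMES thus rose where CDX2 fell.

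The AP-2 genes TFAP2A and TFAP2C stood highest in iNSLCs, as CDX2 and GATA3 did, but only TFAP2A passed the test downward in iPSCs against iNSLCs. TFAP2A stood at 6.97 and 3.999 CPM in iPSC clones 1 and 2, 93.0 CPM in iNSLCs and 11.2 CPM in fibroblasts, and fell 17.0-fold in iPSCs against iNSLCs (edgeR adjusted p = 0.0037). TFAP2C stood at 57.0 and 25.0 CPM in the iPSC clones, 74.6 CPM in iNSLCs and 1.77 CPM in fibroblasts, and rose 23.2-fold against fibroblasts (edgeR adjusted p = 0.00485), with no call against iNSLCs (adjusted p = 0.229). DLX5 fell 10.5-fold, DLX3 5.85-fold and the orphan nuclear receptor ESRRB 4.34-fold in iPSCs against iNSLCs (edgeR adjusted p = 0.00404, 0.0256 and 0.0423). In that comparison 5 regulators rose, 5 fell and 7 did not pass, where 14.1% of all genes tested rose and 14.1% fell. By size, 10 of the 17 were higher in iNSLCs than in fibroblasts and 0 were lower. Of all genes tested, 13.2% were higher and 7.26% lower by that size.

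Some of these regulators shared the clone difference of ELF5. VGLL1 (named by position), a TEAD cofactor, stood at 9.20 and 0.743 CPM in iPSC clones 1 and 2, 2.06 CPM in iNSLCs and 0 counts in fibroblasts. GRHL2, an epithelial factor, stood at 41.4 and 5.09 CPM in the iPSC clones, 16.4 CPM in iNSLCs and 0.173 CPM in fibroblasts. VGLL1 was 12.4-fold, GRHL2 8.13-fold and TP63, a factor of stratified epithelium, 6.42-fold lower in clone 2 than in clone 1. They were 3 of 17 regulators lower by 4-fold, and 0 were higher, where 1.04% of all genes tested were lower and 0.146% higher. The rise of VGLL1 (at least 76.8-fold) and GRHL2 (134-fold) in iPSCs against fibroblasts passed in edgeR (adjusted p = 0.0445 and 0.0312) and did not with bias-adjusted deviances (adjusted p = 0.112 and 0.0554).

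**Figure D5:**
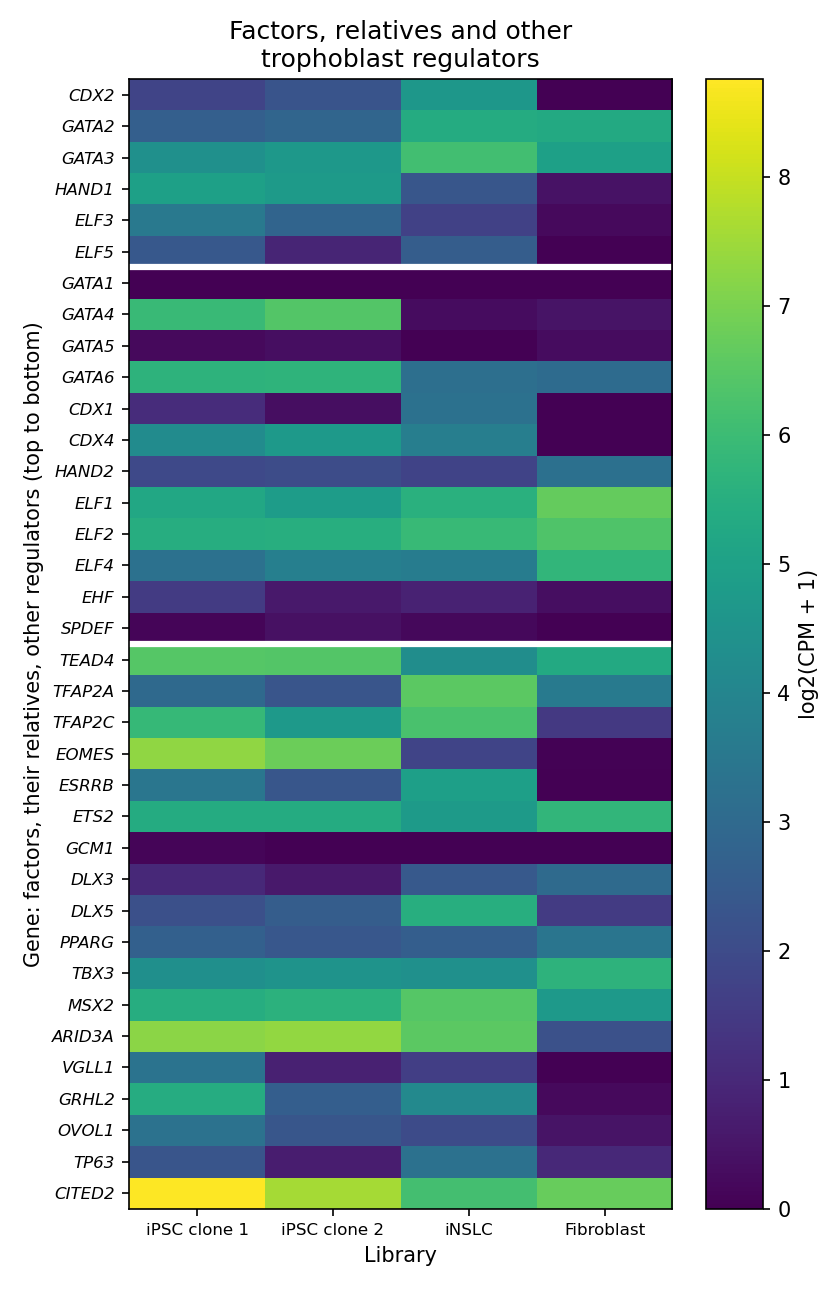
Level of the 6 factors (top block), their 12 relatives (middle) and 18 other trophoblast regulators (bottom) in the 4 libraries, as log2(CPM + 1). GATA4 and EOMES are bright in the iPSC columns only, and TFAP2A, DLX5 and CDX2 are brightest in iNSLCs.

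Genes that carry out trophoblast functions were looked at next, 17 of 22 tested. In iPSCs against fibroblasts 7 rose and 5 fell, where 29.6% of all genes tested rose and 27.5% fell. With total counts 8 rose and 3 fell, where 7063 of 15739 genes rose and 2645 fell. Against iNSLCs 4 rose and 3 fell, where 14.1% of all genes tested rose and 14.1% fell. The simple-epithelium keratins KRT8 and KRT18, which trophoblast shares with other epithelia, both rose in both comparisons. CYP17A1, a steroid hydroxylase, stood at 3.12 and 2.91 CPM in iPSC clones 1 and 2, 11.3 CPM in iNSLCs and 0 counts in fibroblasts, and fell 3.75-fold in iPSCs against iNSLCs (edgeR adjusted p = 0.0158). PAPPA2, a placental protease, had 9 and 46 counts in the iPSC clones, 1267 in iNSLCs and 0 in fibroblasts, a 63.8-fold fall in iPSCs against iNSLCs (edgeR adjusted p = 0.00372). IFNG, an interferon that the pig trophoblast secretes, had 92 and 131 counts in the iPSC clones, 58 in iNSLCs and 0 in fibroblasts.

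Some placental genes had almost no counts. CGA, the hormone subunit that primate trophoblast makes, had 0 counts in all 4 libraries, and GCM1, a factor of syncytial trophoblast, had 2 counts in iPSC clone 1 and 0 in the other libraries. PEG10, an imprinted gene needed in the mouse placenta, stood at 497 and 741 CPM in the iPSC clones, 1968 CPM in iNSLCs and 3953 CPM in fibroblasts, and fell 6.39-fold in iPSCs against fibroblasts (edgeR adjusted p = 0.00127). Fibroblasts, where CDX2 and ELF5 had 0 counts, thus had the highest PEG10 level. The row named PAG1 stood between 22.7 and 26.0 CPM in every library, and whether it is the placental glycoprotein or the membrane adaptor of that symbol is not settled by its identifier. It spans 55450793 to 55619172 on chromosome 4, with 10203 exon bases. The row was counted among the tested genes of this list, though it may not be a trophoblast gene. It was called in neither comparison, which says nothing about its identity.

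HAND1 and CDX2 are also read in other embryonic tissues, and lists for those were counted beside them. Of 11 lateral and extraembryonic mesoderm genes, 7 rose and 3 fell in iPSCs against fibroblasts, where 29.6% of all genes tested rose and 27.5% fell. With total counts 7 rose and 2 fell, where 7063 of 15739 genes rose and 2645 fell. Against iNSLCs 4 rose and 3 fell, where 14.1% of all genes tested rose and 14.1% fell. KDR, a VEGF receptor, stood at 124 and 163 CPM in iPSC clones 1 and 2, 21.6 CPM in iNSLCs and 0 counts in fibroblasts. TBX20, a heart and mesoderm factor, stood at 11.5 and 16.4 CPM in the iPSC clones, 0.454 CPM in iNSLCs and 0.173 CPM in fibroblasts, and rose 30.7-fold against iNSLCs (edgeR adjusted p = 0.00499). KDR and TBX20 were thus high in the same libraries as HAND1, whereas FOXF1, of the same list, fell 106-fold against fibroblasts (edgeR adjusted p = 0.000387).

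Of 11 tested primitive streak and caudal genes, 9 rose and 0 fell in iPSCs against fibroblasts, with a median log2 ratio of 6.36. Against iNSLCs 7 rose and 2 fell, the latter being CDX1 and WNT3A. TBXT, MIXL1, CDX4, WNT3A, WNT8A, EVX1 and FOXA2 had 0 counts in fibroblasts. These genes could not fall against fibroblasts, and the median takes 3 counts there for them. That 0 fell against fibroblasts was thus largely set in advance. For this list and those below, 29.6% of all genes tested rose and 27.5% fell against fibroblasts. Against iNSLCs 14.1% of all genes tested rose and 14.1% fell. With total counts 7063 of 15739 genes rose and 2645 fell against fibroblasts, and 2221 rose and 2291 fell against iNSLCs. TBXT, the notochord and streak factor, stood at 14.1 and 8.70 CPM in the iPSC clones, 1.12 CPM in iNSLCs and 0 counts in fibroblasts. Of 9 amnion genes, 3 rose and 3 fell against fibroblasts (4 and 2 with total counts), and 1 rose and 4 fell against iNSLCs, where TFAP2A and TFAP2B were among those that fell. BMP2 and BMP4 encode secreted ligands that act on mesoderm, amnion and trophoblast. BMP2 stood at 116 and 117 CPM in the iPSC clones, 16.5 CPM in iNSLCs and 1.06 CPM in fibroblasts, and rose in both comparisons (edgeR adjusted p = 0.000165 and 0.00166). BMP4 rose 7.58-fold against fibroblasts and 5.36-fold against iNSLCs (edgeR adjusted p = 0.0017 and 0.00853). Of 9 BMP ligands and direct targets, 4 rose and 3 fell against fibroblasts (4 and 2 with total counts). Those that rose were BMP2, BMP4, BMP7 and BAMBI, and those that fell were ID3, SMAD9 and, not with total counts, ID2. Against iNSLCs 5 rose and 1, SMAD9, fell (5 and 2 with total counts). SMAD9 stood at 5.995 and 8.52 CPM in the iPSC clones, 16.3 CPM in iNSLCs and 129 CPM in fibroblasts.

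Simple-epithelium genes were counted beside ELF3 and ELF5. Of 12, 11 rose and 0 fell in iPSCs against fibroblasts, and 8 rose and 0 fell against iNSLCs. Of all genes tested, 29.6% rose and 27.5% fell against fibroblasts, and 14.1% rose and 14.1% fell against iNSLCs. KRT8 stood at 4408 and 4328 CPM in iPSC clones 1 and 2, 814 CPM in iNSLCs and 3.87 CPM in fibroblasts. EPCAM, an epithelial adhesion protein, stood at 247 and 172 CPM in the iPSC clones, 58.1 CPM in iNSLCs and 0.561 CPM in fibroblasts. ELF3 was ordered in the same way as KRT8 and EPCAM, with iPSCs highest and fibroblasts lowest.

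For each factor the 3 genes with the most similar profile over the 4 libraries were found by the distance between centred log2(CPM + 1) values among 13127 named genes, a description over 4 points that share their libraries. Nearest to CDX2 were C1QL2, DCC and SP5 (distances 0.177, 0.271 and 0.325). Nearest to GATA2 were GPNMB, CMPK2 and OAS2 (0.156, 0.168 and 0.194), and nearest to GATA3 were ODAD4, HOXA7 and ARRDC4 (0.0681, 0.111 and 0.117). PACSIN1, WIPF3 and CDCP1 were nearest to HAND1 (0.0942, 0.185 and 0.265), and TMC4, PLEKHD1 and FERMT1 to ELF3 (0.215, 0.221 and 0.226). EPN3, LYPD1 and HOXA5 were nearest to ELF5 (0.559, 0.559 and 0.626), at a larger distance than for the other factors. None of the 6 was among the nearest genes of another. Among themselves HAND1 and ELF3 were closest, at 1.37, followed by GATA2 and GATA3 at 1.75, and GATA2 and HAND1 were farthest apart, at 6.23.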

How the data were processed

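RNA sequencing libraries of porcine iPSCs (n = 2 clones), iNSLCs (n = 1) and fibroblasts (n = 1) were analysed from the authors' deposited table of raw counts. Its columns were identical to the counts of the 4 single-sample tables in all 25880 genes. Per the submitters' processing notes, Trim Galore 0.4.0, STAR 2.5.3a and featureCounts 1.5.2 were used with Sscrofa11.1. The roles and settings of these tools, and whether counting used strand, are not given in the sources used here. The exon length of each gene (other unit, bases) was deposited by the authors in the same table.

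Ensembl identifiers gave symbols to 14857 genes, and position gave symbols to 1544 (overlap of at least 80% of the shorter span with 1 annotated gene, spans within 8-fold, a rule set after the data were seen). The 6 factors and the gene lists were chosen with earlier results of these data known. Of 136 listed genes 130 were found, and KRT19, CYP19A1, PAG2, KRT5, KRT14 and TAL2 were not analysed here.

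Counts were filtered (filterByExpr), scaled (TMM, factors 1.09 and 1.11 for iPSC clones 1 and 2, 1.11 for iNSLCs and 0.742 for fibroblasts) and fitted in 1 model of all libraries with edgeR 4.0.16 (quasi-likelihood test, two-sided, Benjamini-Hochberg over 15739 genes). All 6 factors passed the filter. Comparisons with 1 library a side used CPM ratios with 95% exact conditional binomial intervals and a size of 4-fold with at least 1 CPM, and a library under 3 counts was set to 3 counts. The model was tested on simulated data. Named genes were the 6 factors, every measured relative, the 3 nearest profiles of each factor and, per list and tested comparison, up to 4 genes with the largest log2 ratio among those at 1 CPM or more in any library. TEAD4, TFAP2C, TP63, CYP17A1, PEG10, PAG1, CGA, GCM1, WNT3A, LHX3, EEFSEC and the chromosomal neighbours were named after their values were seen. Alternatives were RLE scaling, total counts, no filter, DESeq2 1.42.0 and a leave-one-clone-out, and bias-adjusted deviances in edgeR, which were added after the data were seen.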

Additional observations from a re-analysis of the deposited data

How the results depend on the processing

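Log2 ratios of iPSCs over fibroblasts differed between TMM and total counts by a median of -0.57 (TMM minus total counts). The GATA3 ratio, -0.47 with TMM, was 0.11 with total counts, and 7063 genes rose and 2645 fell against 4665 and 4326 with TMM. Between iNSLCs and fibroblasts total counts gave 2763 genes higher and 682 lower by size, against 2078 and 1143. The same setting moved the log2 ratios of iNSLCs over fibroblasts to 0.66 for GATA2 (0.08 with TMM) and 1.74 for GATA3 (1.16 with TMM). Of the 6 factors, 2 rose in iPSCs against iNSLCs with RLE scaling, total counts or DESeq2, against 1 in the main test, the added gene being ELF3. Requiring 10 CPM left 927 genes higher in iNSLCs than in fibroblasts with 1 of the factors (4 at 1 CPM). Between the clones it left 4 genes higher and 29 lower in clone 2, with 0 of the factors lower. Of the other values for single factors, 113 kept their direction and side of the threshold or stayed within error, and ELF5 lost its call against fibroblasts with bias-adjusted deviances (adjusted p = 0.0654). Leaving out either clone turned no factor's direction, and without a clone no residual degree of freedom is left for a test. No paired analysis was possible because all libraries come from 1 animal, with 1 iNSLC and 1 fibroblast library, and hold no pairs. Depth limits the low genes: ELF5 in clone 2 rests on 40 counts, ELF3 and HAND1 in fibroblasts on 8 and 16.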

Other observations

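The genes beside each factor on its chromosome were looked at after the data were seen. FLT3, a receptor kinase gene 15707 bases from CDX2, had 173 and 313 counts in iPSC clones 1 and 2, 41 in iNSLCs and 0 in fibroblasts, so it stood highest in iPSCs whereas CDX2 stood highest in iNSLCs. PDX1, the homeobox gene on the other side of CDX2, had 6 and 9 counts in the iPSC clones, 2 in iNSLCs and 0 in fibroblasts. ABTB2, 90887 bases from ELF5, stood at 25.1 and 22.3 CPM in the iPSC clones, 5.13 CPM in iNSLCs and 1.68 CPM in fibroblasts, without the clone difference of ELF5. CAT, the catalase gene 5181 bases from ELF5, stood at 81.1 and 82.7 CPM in the iPSC clones, 176 CPM in iNSLCs and 130 CPM in fibroblasts. RNPEP, an aminopeptidase gene 969 bases from ELF3, stood between 87.4 and 137 CPM in the 4 libraries, against a range of 0.173 to 10.6 CPM for ELF3.

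Markers of V2 interneurons, a neural type in which GATA2 and GATA3 are also used, were near the limit: of 5 found, LHX3 had 0 counts in every library, and the summed level was 1.60 and 2.23 CPM in iPSC clones 1 and 2, 1.54 CPM in iNSLCs and 9.93 CPM in fibroblasts, of which TAL1 made 9.65 CPM.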
